A study of Homo sapiens with 8 samples.

Results

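The nuclear pore complex and the soluble receptors that carry cargo through it were followed in a ribosome profiling comparison of WM902B, a human cell line from a primary melanoma that carries the BRAFV600E mutation. One set of cells expressed a scrambled short hairpin as control (shSCR) and the other a short hairpin targeting the long non-coding RNA TINCR (shTINCR). They were at passage 18, and treatment with cycloheximide (100 µg/ml for 5 min), which holds ribosomes in place on the mRNA, was given to all of them. The 8 libraries formed 4 groups of 2 biological replicates, with 4 libraries of ribosome-protected fragments and 4 of RNA, whose titles name total RNA and whose labels name polyA RNA. Genes were taken by symbol from the authors' deposited table: names starting with NUP and a digit, NUPL, IPO and a digit, XPO, KPNA, KPNB, TNPO or RANBP, together with RAN, RANGAP1, CSE1L, TPR, POM121, NDC1 and RCC1. IPO7 was left out by the rule. This gave 50 of the 4616 genes. The rule uses symbols and no measured value, but it was written with earlier results of these data known; POM121 was the only one of the 7 single symbols with no row.

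The quantity measured was translational efficiency (TE), the ratio of ribosome-protected fragments to RNA of a gene, given on a log2 scale for each condition. The table had no value per library, so the level in every replicate, the spread between replicates and the depth are unknown here, and a change of footprints cannot be separated from a change of RNA. A gene was counted as changed at the deposited adjusted p below 0.05. The standard error (SE) printed beside a change is the one that the change and its unadjusted p imply if that p came from a normal statistic; it is no measured replicate error. TINCR had 0 rows, so its knockdown could not be checked. Of 12 melanocyte lineage markers 11 had a row in the table, against 0 of 6 keratinocyte, 1 of 5 immune, 1 of 4 endothelial and 1 of 5 fibroblast markers. Of these rows 0 passed the threshold, beside 16.4% of all genes, and they are too few to set apart from it. SOX10 did not pass (adjusted p = 0.196), but it did in the second of the authors' versions of the estimate (adjusted p = 4.98e-05, Benjamini-Hochberg over all genes).

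Nucleoporins build the pore. The Y complex and the inner ring form its scaffold, nucleoporins rich in phenylalanine-glycine (FG) repeats fill the channel, and filaments and a basket extend into the cytoplasm and the nucleus. Importins and exportins of the importin beta superfamily bind their cargo and pass through the FG repeats. The direction is set by the small GTPase RAN, which is loaded with GTP by RCC1 in the nucleus and hydrolyses it with RANGAP1 in the cytoplasm: RAN-GTP releases cargo from importins and is bound together with cargo by exportins. Importin alpha proteins are adaptors that hold a classical nuclear localisation signal and bind importin beta (KPNB1).

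The 5′ ends of the mRNAs are shown first because a terminal oligopyrimidine start, a C at the first base followed by further pyrimidines, is a known mark of mRNAs whose translation depends on mTORC1 and LARP1. Of the 50 genes, 45 matched an entry of the RefSeq promoter table (GRCh38.p14). Each line gives 10 bases before and 20 bases from the annotated start, 5′ to 3′ on the gene's strand. Capitals mark an unbroken pyrimidine run that begins with C at the first transcribed base. The first 6 genes lost TE, XPO6 gained it, and the last 3 did not pass the threshold.
IPO5 (chr13:97953665-97953694, plus strand): tgggattgatgacctcccacaactggagca
CSE1L (chr20:49046302-49046331, plus strand): caggctcgctgtcgcgccattttgccgggg
XPO1 (chr2:61538337-61538366, minus strand): gcggaggcccaggttccaaacgctccgcgg
KPNA2 (chr17:68035725-68035754, plus strand): tgcacgagccacacggtctttgagctgagt
TPR (chr1:186375234-186375263, minus strand): tgcgcgcgcaCTTCggtcgcgggcggtgag
NUP133 (chr1:229508322-229508351, minus strand): cgcgcgccatCTCTTCCCTTaggtgtttaa
XPO6 (chr16:28211946-28211975, minus strand): ggcgctcgccacttccggcgcgttggggct
RCC1 (chr1:28506033-28506062, plus strand): ttttctctctCCTTTTTggagacagattcg
RANGAP1 (chr22:41302350-41302379, minus strand): ctgccgccccCTTCCCgcgggcccggctgc
NDC1 (chr1:53838277-53838306, minus strand): ggcgcacggtCTCCTgtacgccctagacta

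A start of C with a run of at least 5 pyrimidines was found in 4 of the 45 genes (8.89%), namely NUP133, RCC1, RANGAP1 and NDC1. Only the first listed promoter entry of each gene symbol was used. The share was 4.04% of the 27305 entries so kept and 6.75% of the 3735 that belong to genes of the table. Across the whole table, 67 of 310 matched genes that fell (21.6%) had such a start, against 10 of 293 that rose (3.41%). Among the pore and transport genes that fell it was 1 of 11 (9.09%), and NUP133 was that gene. IPO5, CSE1L, XPO1 and KPNA2 had a purine at the annotated first base. An annotated start can lie away from the start used in these cells, so a window without such letters says only that they are not at that position.

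In shTINCR cells 7 import and export receptors (importin alpha included) and 5 nucleoporins lost translational efficiency, and 1 export receptor gained it. Of the 50 genes 12 fell, 1 rose and 37 did not pass per the authors' deposited table. The genes that fell were 24% of the 50, beside 8.17% of all 4616 genes, and the 1 that rose was 2%, beside 8.23%. In both directions together 26% passed, beside 16.4% over the table. The median log2 change was -0.13 (0.915-fold) with quartiles of -0.25 and 0.01, and over all genes it was 0.02 with quartiles of -0.15 and 0.18 per the authors' deposited table. A change below 0 was seen in 33 of 50 genes (66.0%), beside 47.0% of the table. At a stricter adjusted p of 0.01, 6 of the 50 fell and 0 rose, beside 4.2% and 3.62% of all genes. At 0.1 the counts were 15 and 2, beside 10.4% and 11.5%. With the p-values of the authors' first version 12 fell and 1 rose (8.71% and 9.23% of all genes), and with those of the second version 13 fell and 2 rose (9.23% and 11%). The final p is the larger of both versions in every row, so a call could only be gained, never lost, in either version. These figures describe the list and carry no test of it against other genes.

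**Figure D1:**
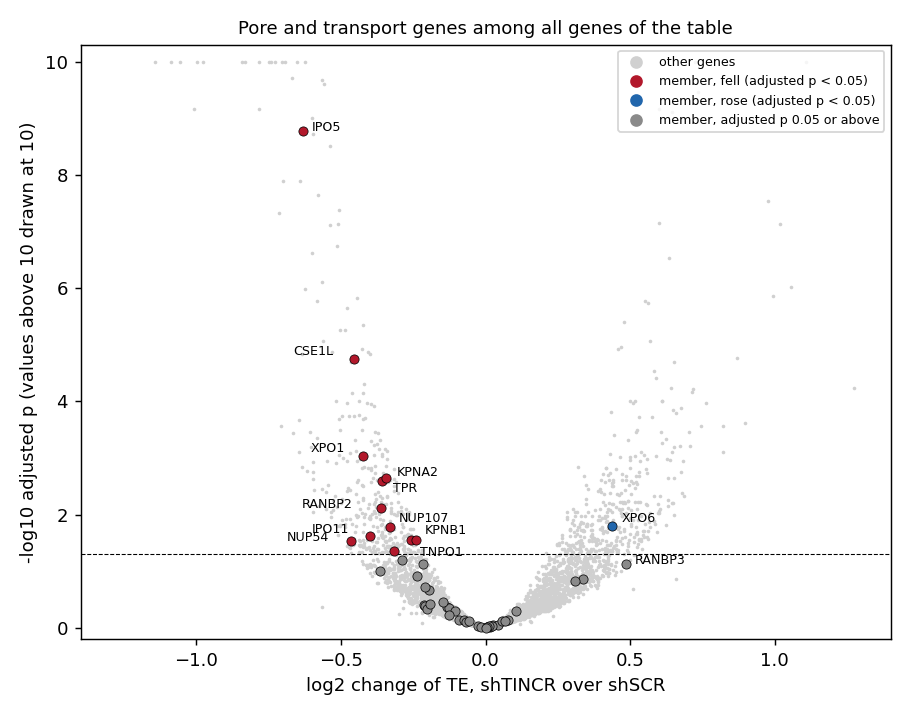
Each point is a gene of the authors' table, placed by its log2 change of TE (shTINCR over shSCR, x axis) and by the -log10 of its adjusted p (y axis, capped at 10). Light grey points are the other genes, and outlined darker grey points are pore and transport genes that did not pass. The dashed line is the threshold of 0.05. The 12 coloured points on the left fell, led by IPO5 at -0.63, and XPO6 at 0.44 is the 1 that rose.

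Among the import receptors, 4 of 9 genes fell (44.4%, beside 8.17% of all genes) and 0 rose (beside 8.23%). The median log2 change was -0.21 per the authors' deposited table. A class of 9 genes is small, and it was not tested against the table. Of the 4 genes that fell, IPO5, KPNB1 and TNPO1 have a named pseudogene in RefSeq, and IPO11 has none. Without the genes that have one, the class median was -0.11 per the authors' deposited table. The part of shared reads in these values was not tested. IPO5, which imports ribosomal proteins and histones, had a log2 TE of -0.12 with the control hairpin and of -0.75 with shTINCR per the authors' deposited table. That is a log2 change of -0.63 (SE 0.093), or 0.645-fold, with an adjusted p of 1.66e-09 per the authors' deposited table, and it was the largest fall of the 50 genes. IPO11, a receptor for ubiquitin-conjugating enzymes, went from 0.39 to -0.01 (0.758-fold, SE of the log2 change 0.13, adjusted p = 0.024) per the authors' deposited table. KPNB1, the partner of importin alpha, went from 0.48 to 0.24 (0.846-fold, SE 0.082, adjusted p = 0.0278) per the authors' deposited table. TNPO1, which imports hnRNP A1 and other RNA-binding proteins, went from -0.744 to -1.0 (0.837-fold, SE 0.088, adjusted p = 0.0278) per the authors' deposited table.

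The other 5 import receptors did not pass. IPO4, an importer of histones, stood at a log2 change of -0.21 (adjusted p = 0.188) per the authors' deposited table. IPO8 stood at -0.13, TNPO3, which imports SR splicing factors, at -0.11, TNPO2 at -0.02 and IPO9 at 0.02 per the authors' deposited table. TNPO1 and TNPO2 are close paralogs, and whether their changes differ could not be tested, since the table gives no error for a difference between genes. IPO7, the importin outside the list, had a log2 change of -1.09 per the authors' deposited table, a larger fall than that of IPO5.

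Of 7 exportins 2 fell (28.6%, beside 8.17% of all genes) and 1 rose (14.3%, beside 8.23%). Their median log2 change was -0.15 per the authors' deposited table. These are too few genes to set the class apart from the table. CSE1L, which returns importin alpha to the cytoplasm, went from a log2 TE of -0.03 to -0.48 (0.73-fold, SE of the log2 change 0.088, adjusted p = 1.79e-05) per the authors' deposited table. XPO1, also called CRM1, the receptor for leucine-rich export signals, went from -0.46 to -0.88 (0.746-fold, SE 0.10, adjusted p = 0.000906) per the authors' deposited table. XPO6, the exportin for actin and profilin, went the other way, from -1.47 to -1.03 (1.35-fold, SE 0.14, adjusted p = 0.0157) per the authors' deposited table. In shSCR cells XPO6 was in the lowest 6.17% of all genes by TE, as were XPO4 (5.59%) and the tRNA exporter XPOT (5.81%) per the authors' deposited table.

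XPO4, an exporter of the translation factor eIF5A, stood at 0.31 (adjusted p = 0.148), and XPOT at 0.01 (adjusted p = 0.938) per the authors' deposited table. XPO5, which exports precursor microRNAs, stood at -0.15 and the broad-range XPO7 at -0.19 per the authors' deposited table. Importins of the beta family and exportins together had 6 genes that fell and 1 that rose among 16 (43.8% changed, beside 16.4% over the table).

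The importin alpha family had 5 genes with a row, of which 1 fell and 0 rose. That is 20% changed, near the 16.4% over the table, and too few genes to set apart from it. KPNA2 went from a log2 TE of 0.999 to 0.654 (0.787-fold, SE of the log2 change 0.089, adjusted p = 0.00226) per the authors' deposited table. KPNA4 stood at -0.24 (adjusted p = 0.122), KPNA3 at -0.20 (adjusted p = 0.466), KPNA1 at -0.07 (adjusted p = 0.772) and KPNA6 at 0.06 (adjusted p = 0.764) per the authors' deposited table. KPNA2 had the highest TE of the family in both conditions, followed by KPNA1, KPNA3, KPNA6 and KPNA4 per the authors' deposited table. KPNA6 and KPNA4 were neighbours in shSCR cells, with log2 TE values of -0.73 and -0.74 per the authors' deposited table. KPNA2 and its exporter CSE1L both fell, as did KPNB1, the receptor that carries importin alpha inward. Whether these falls are linked was not tested.

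**Figure D2:**
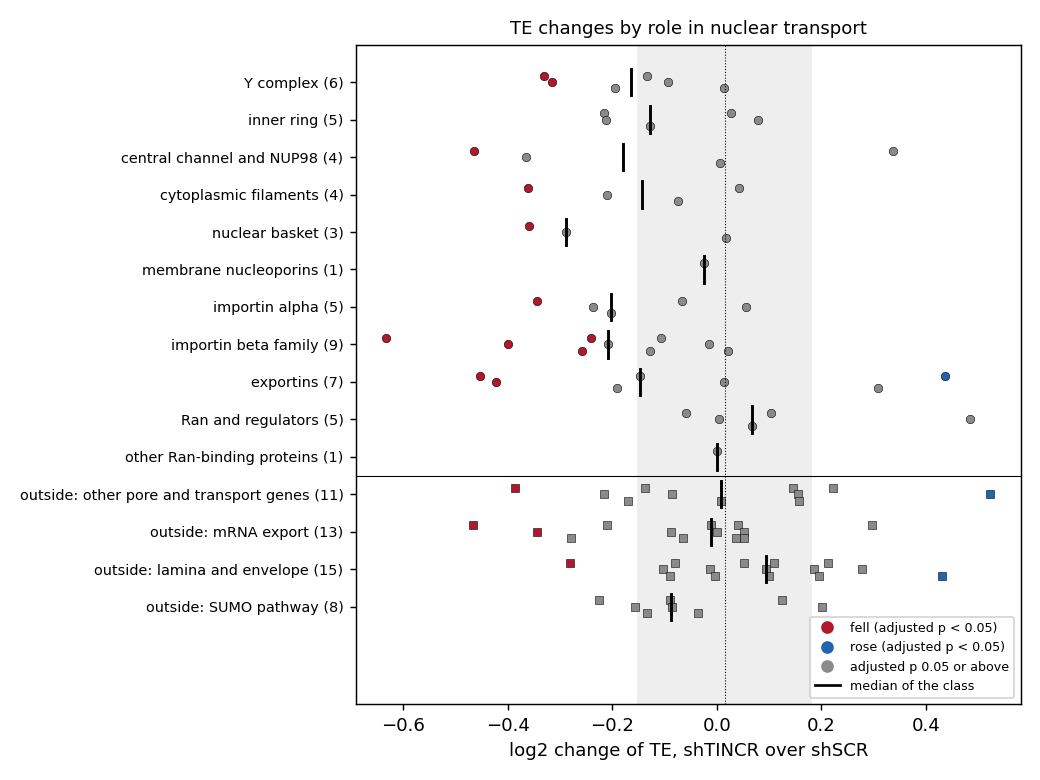
Log2 changes of TE (x axis) by role, with the number of genes in brackets; circles are the 50 genes, squares are pathway genes outside the naming rule, vertical bars are class medians, and the grey band and dotted line are the quartiles and the median of all genes. Import receptors extend from -0.63 to 0.02, exportins from -0.45 to 0.44, and RAN and its regulators from -0.06 to 0.48; differences between classes were not tested.

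Of 23 nucleoporins 5 fell and 0 rose (median -0.13) per the authors' deposited table. The share that changed in either direction, 21.7%, was near the 16.4% of all genes; all 5 were falls, which made up 8.17% of the table. In the Y complex, which coats both faces of the pore, 2 of the 6 genes reached by the naming rule fell (33.3%). These are too few genes to set apart from the table. NUP107 went from a log2 TE of 0.50 to 0.17 (0.795-fold, SE of the log2 change 0.11, adjusted p = 0.0168) per the authors' deposited table. Its direct binding partner NUP133 went from 0.05 to -0.27 (0.804-fold, SE 0.12, adjusted p = 0.0443) per the authors' deposited table, the weakest of the 12 falls by adjusted p. NUP43 stood at -0.19 (adjusted p = 0.213), NUP160 at -0.13, NUP37 at -0.09 and NUP85 at 0.01 per the authors' deposited table. The subunits of this complex are assembled together, and the changes of these 6 ranged from -0.33 to 0.01. Its subunits SEC13, SEH1L and AHCTF1, outside the naming rule, stood at 0.15, -0.09 and -0.17 per the authors' deposited table. None of them passed (adjusted p = 0.383, 0.681 and 0.4) per the authors' deposited table.

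The inner ring, which anchors the channel to the scaffold, had 0 of 5 genes past the threshold, too few genes to set apart from the 16.4% over the table. NUP205 came nearest at -0.22 (adjusted p = 0.0757), followed by NUP35 at -0.21 (adjusted p = 0.401) and NUP155 at -0.13 (adjusted p = 0.44) per the authors' deposited table. NUP205 passed in the second of the authors' versions of the estimate (adjusted p = 0.0461, Benjamini-Hochberg over all genes), taken from the authors' deposited table. The paralog of NUP205, NUP188, stood at 0.08, and NUP93, which binds both, at 0.03 per the authors' deposited table.

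In the channel, NUP54, NUP58 and NUP62 form one FG-repeat complex, and their values pointed in different directions. NUP54 fell from a log2 TE of 0.12 to -0.34 (0.725-fold, SE of the log2 change 0.16, adjusted p = 0.0288) per the authors' deposited table. NUP58 stood at -0.37 (adjusted p = 0.0993) and NUP62 at 0.34 (adjusted p = 0.136) per the authors' deposited table. NUP98, a mobile FG nucleoporin, stood at 0.01 (adjusted p = 0.964) per the authors' deposited table. Whether NUP54 and NUP62 differ from each other was not tested.

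On the cytoplasmic side, RANBP2, the SUMO ligase of the filaments that binds RANGAP1, fell from -0.72 to -1.08 (0.778-fold, SE 0.10, adjusted p = 0.00774) per the authors' deposited table. Reads of RANBP2 can be shared with the near-identical RGPD genes, of which RefSeq names 7, so this value is uncertain. NUP214 stood at -0.21, NUP88 at -0.07 and NUPL2 (now NUP42) at 0.04, with adjusted p-values of 0.41, 0.723 and 0.905 per the authors' deposited table. In the nuclear basket, its coiled-coil component TPR fell from 0.32 to -0.04 (0.78-fold, SE 0.093, adjusted p = 0.00255) per the authors' deposited table. NUP153, which anchors the basket, stood at -0.29 just outside the threshold (adjusted p = 0.062), and NUP50 at 0.02 (adjusted p = 0.93) per the authors' deposited table. NDC1, the membrane nucleoporin with a row, stood at -0.03 (adjusted p = 0.935) per the authors' deposited table.

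Of RAN and its 4 regulators 0 passed the threshold, a count too small to set apart from the 16.4% over the table. RAN, which supplies the energy and direction of transport, had a log2 TE of -0.58 with the control hairpin and of -0.57 with shTINCR, a change of 0.0036 (adjusted p = 0.98) per the authors' deposited table. Its exchange factor RCC1 stood at 0.07, its GTPase-activating protein RANGAP1 at 0.10 and its cofactor RANBP1 at -0.06, with adjusted p-values of 0.762, 0.511 and 0.757 per the authors' deposited table. RANBP3, a cofactor of XPO1, had the largest positive value of the 50 genes, at a log2 TE of 0.12 with the control hairpin and of 0.61 with shTINCR (log2 change 0.48, SE 0.20, adjusted p = 0.0745) per the authors' deposited table. It passed in the authors' second version alone (adjusted p = 0.0188, Benjamini-Hochberg over all genes), taken from the authors' deposited table. RANBP9, a scaffold protein of a ubiquitin ligase complex, was at 0.27 in both conditions per the authors' deposited table. A p above the threshold does not show that these genes kept their TE, since a small change can stay above it. The implied SE was 0.082 for RAN, 0.12 for RCC1 and 0.099 for RANGAP1, beside 0.089 for KPNA2, which fell.

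**Figure D3:**
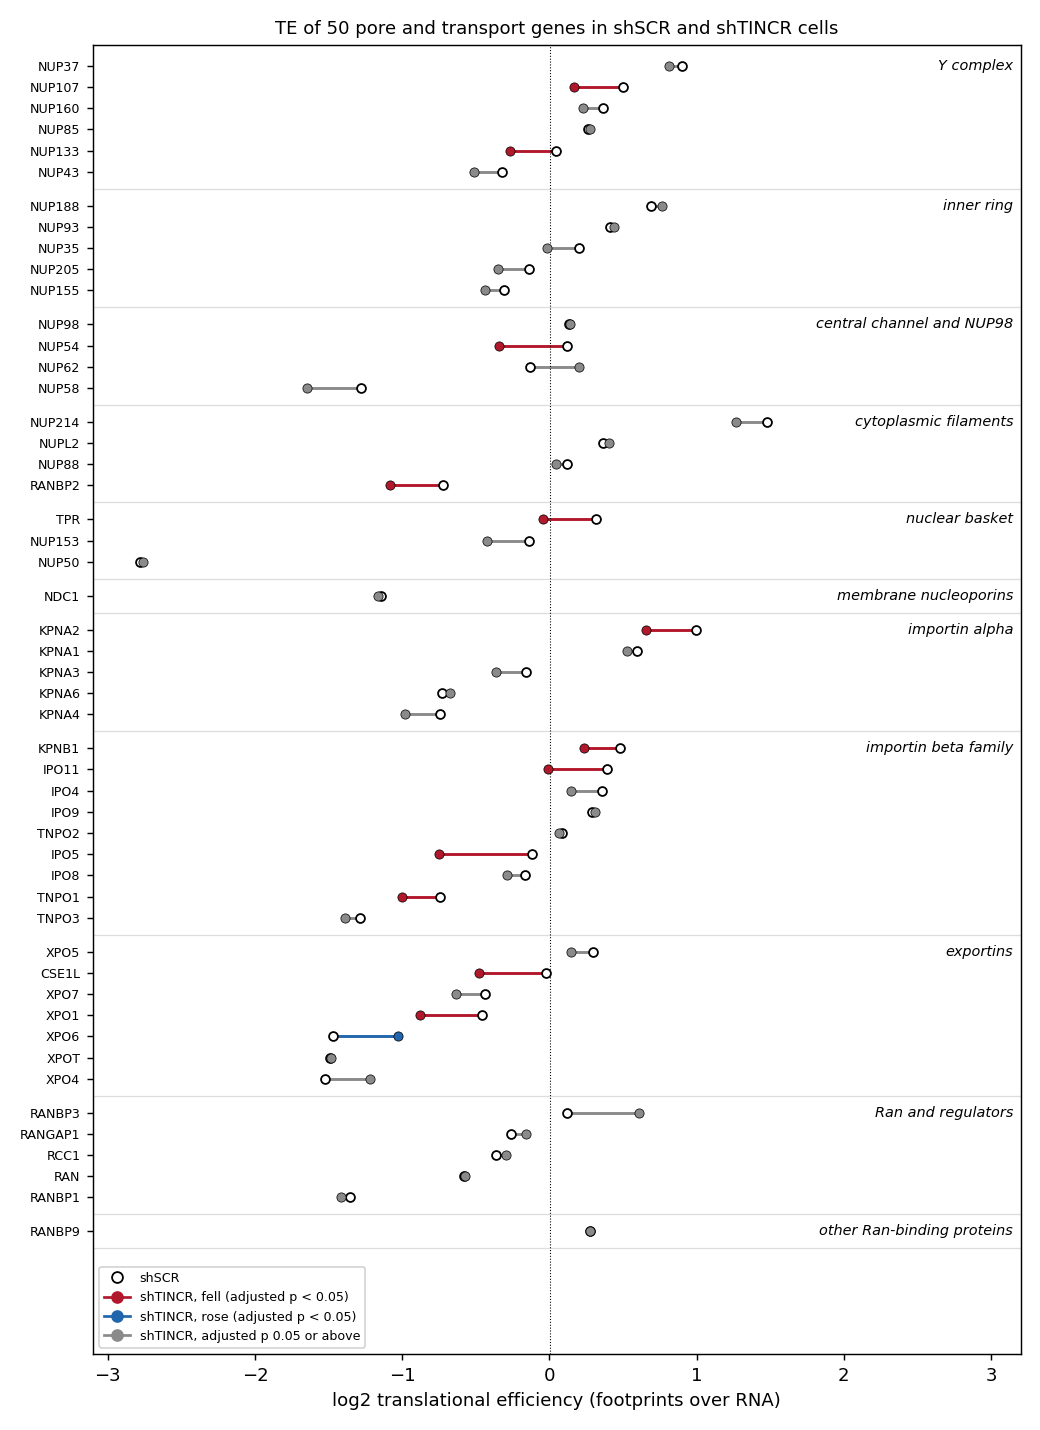
Log2 TE of the 50 genes in shSCR cells (open circles) and shTINCR cells (filled circles), joined by a line and grouped by role; red and blue mark genes that fell or rose at the deposited adjusted p, and the dotted line is the median of all genes in shSCR cells. TE ranged from -2.78 for NUP50 to 1.48 for NUP214, and the lines of IPO5, CSE1L and XPO1 run to the left.

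The TE level itself differed widely between genes of the same machine. In shSCR cells the highest log2 TE was that of NUP214, 1.48, followed by KPNA2 at 0.999, NUP37 at 0.90, NUP188 at 0.69 and KPNA1 at 0.60 per the authors' deposited table. The lowest was that of NUP50, -2.78, which ranked 4597th of 4616 genes, followed by XPO4, XPOT, XPO6 and RANBP1 at -1.53, -1.49, -1.47 and -1.35 per the authors' deposited table. NUP214 and NUP50 kept the first and the last place among the 50 genes in shTINCR cells. IPO5 moved from place 26 to 38, IPO11 from 9 to 21, TPR from 13 to 23 and RANBP3 from 20 to 5 in that order. The median of the 50 was -0.07, close to the 0.0078 of all genes, and 12 of them lay in the lowest 25% of the table and 5 in the highest 25%. The counted region of the RNA reads is unknown here, and neighbours in this order cannot be told apart without an error per gene.

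Some of these genes share sequence with others. Named pseudogenes were found in RefSeq for 13 of the 50 genes, with 9 for RAN, 4 for NUP50 and 3 each for KPNA2, TNPO1 and XPOT. Genes with a pseudogene that passed the threshold were 4, all falls: KPNA2, TNPO1, IPO5 and KPNB1. IPO5 and KPNB1 had 1 pseudogene each. Among the 14 genes with a pseudogene or, for RANBP2, near-identical genes, 5 fell (35.7%) and 0 rose (median -0.22) per the authors' deposited table. Among the other 36 genes 7 fell (19.4%) and 1 rose (2.78%), with a median of -0.08 per the authors' deposited table. Over all genes 8.17% fell and 8.23% rose. The part of shared reads in these values was not tested. Genes of small nucleolar RNAs lie inside 5 of the 50 (NUP98, NDC1, TNPO2, RANBP1 and RCC1). Of these 5 genes 0 passed, beside 16.4% of all genes, and nothing about such host genes can be read from so few.

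Genes of the same pathway that the naming rule does not reach were counted from 4 lists, and 4 of their 47 measured genes fell and 2 rose (12.8%, beside 16.4% over the table). Among 11 other pore and transport genes, GLE1, the activator of the export helicase DDX19 at the pore, rose by 0.52 (adjusted p = 0.022) per the authors' deposited table. HIKESHI, the importer of HSP70, fell by 0.39 (adjusted p = 0.0443) per the authors' deposited table. Of 13 mRNA export genes 2 fell: THOC2, the scaffold of the THO complex, by 0.47 (adjusted p = 0.00082) and the poly(A)-binding protein ZC3H14 by 0.34 (adjusted p = 0.031) per the authors' deposited table. Of 15 genes of the lamina and envelope, lamin B2 (LMNB2) rose by 0.43 (adjusted p = 0.00413) and TMPO, which encodes the LAP2 proteins, fell by 0.28 (adjusted p = 0.0395) per the authors' deposited table. Of 8 genes of the SUMO pathway 0 passed; SUMO3, a modifier of the family, had the smallest p-value, at a log2 change of 0.20 (adjusted p = 0.247) per the authors' deposited table. By list the share that changed was 18.2% (other pore and transport genes), 15.4% (mRNA export), 13.3% (lamina and envelope) and 0% (SUMO pathway). Each list is small and was not tested against the 16.4% over the table. The medians of these lists lay between -0.09 and 0.09.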

How the data were processed

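One table of the whole series was analysed. Its log2 values, computed and deposited by the authors, are the TE level of each hairpin and the TE change, estimated in a first and a second version of which 1 was kept as final. Its p-values, per the file headers, belong to both versions and the final choice, with an adjusted p beside them. In each of the 4616 rows the final p was the higher of both, and Benjamini-Hochberg over the table recovered the adjusted p (largest difference 1.95e-15). Per the submitters' processing notes, which give no roles, reads involved TopHat2 2.0.8 and Bowtie2 2.1.0 on hg19, HTSeq 0.5.3p9, DESeq 1.10.1, CASAVA 1.9 and SAMtools 0.1.18. What computed TE and its p-values is unknown here. With 0 columns of values per library, the planned count model was not run, and depth and replicate spread are unknown. Genes were named by class: all past the threshold, and otherwise the 3 smallest p-values, with all importin alpha genes. Further genes were named so that all 50 appear, and SEC13, SEH1L and AHCTF1 were added as further subunits of the Y complex. The value of 1 further gene, from the lists outside the naming rule, is not reported here. The members and lists were chosen with earlier results of these data known. Folds are 2 to the power of the log2 change. RefSeq (GRCh38.p14) gave names (49 current symbols, 1 older name), pseudogenes and start windows; protein features were not analysed here. Computation used scipy 1.17.1, numpy 2.4.6 and pandas 2.3.3 under Python 3.11.15, and figures matplotlib 3.10.9. The code for the adjustment and the implied SE was checked on simulated normal statistics. That check cannot show that the deposited p-values came from a normal statistic.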

Additional observations from a re-analysis of the deposited data

How the results depend on the processing

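No paired analysis was possible because the table holds no value per library, and no replicate could be left out. At an adjusted p below 0.01, 6 genes fell and 0 rose; at 0.1, 2 rose. Without genes with a pseudogene or near-identical copy, 7 fell. In the authors' second version 2 rose, RANBP3 being the added one, and NUP205 also passed; the first version added 0 calls among the 50 genes. Neither version could lose a call, since the final p is the larger of both in every row, so they do not test stability. Without such genes the median moved to 0.0066 for the central channel and NUP98 and to -0.066 for importin alpha. The other settings moved class medians by less than 0.109, the median implied SE of the 50 genes. That SE stood in for the unknown replicate spread. Some of these settings could not have moved a median that far. The largest gap between the authors' versions for any of the 50 genes was 0.0032. Subtracting the median of all genes, another setting, shifts every class by the same 0.016. Among the 50 genes 0 changes past the threshold turned direction, but such small shifts could not turn one. The smallest of these changes was -0.24 (KPNB1). Among the mRNA export genes 1 (ALYREF) rose in the second version.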
